A study of Mus musculus with 32 samples.

Results

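The metallothioneins Mt1 and Mt2 and 7 antioxidant genes, Hmox1, Nqo1, Gclc, Gclm, Srxn1, Txnrd1 and Osgin1, were followed through mouse liver regeneration and liver development. These 9 genes were taken by name from the 18194 genes that had a probe set listed with a single gene. For each gene the probe set of highest mean intensity over all 32 arrays was used, and intensities were analysed as log2(intensity + 16). All 9 were measured, and no filter on low values was applied.

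Metallothioneins are small cysteine-rich proteins that bind zinc and copper. Their genes are switched on through metal response elements by the zinc sensor MTF1, and also by glucocorticoids and by interleukin-6 during the acute phase response of the liver. NRF2, encoded by Nfe2l2, is a transcription factor that KEAP1 holds in check by directing it to degradation; when oxidants or electrophiles modify KEAP1, NRF2 accumulates, pairs with a small MAF protein and binds antioxidant response elements. BACH1 occupies the same elements as a repressor and is released by heme. Among the targets, Gclc and Gclm encode the catalytic and modifier subunits of the rate-limiting enzyme of glutathione synthesis, Hmox1 encodes heme oxygenase 1, Nqo1 a quinone reductase, Srxn1 sulfiredoxin, which restores over-oxidised peroxiredoxins, and Txnrd1 the cytosolic thioredoxin reductase. Osgin1 encodes an oxidative stress induced growth inhibitor.

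Expression was measured on oligonucleotide arrays with 2 arrays in each of 16 groups, and each array held RNA pooled from at least 3 tissues. The 12 embryonic arrays came from livers microdissected out of CD-1 embryos at 6 stages, daily from 10.5 to 14.5 days post conception and then at 16.5 days. The 18 arrays of regenerating liver came from 10-week-old female CD-1 mice at 9 times between 1 and 72 h after removal of 2/3 of the liver together with the gallbladder, under ketamine and xylazine, with buprenorphine given afterwards for pain. The 2 time 0 arrays came from unoperated females of the same age and strain. No array of sham-operated liver was analysed here, so effects of the operation, the drugs and the loss of liver tissue cannot be told apart. For the 12 embryonic arrays, a free-text field names adult female liver and the age field gives 10.5 days throughout; the stages were therefore read from the field that names the source of each sample. Nothing in the labels says whether the 2 pools of a group shared animals or litters, so the p-values measure only the spread between such pools.

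The arrays followed their tissue labels. The summed level of 6 hepatocyte markers was 5077 to 23808 in embryonic liver, 26542 to 50179 over all regenerating livers and 32543 to 36518 at time 0. Cyp2e1, a mature hepatocyte enzyme, lay between 50.1 and 93.2 in the embryo, against 5294 and 6985 at time 0. The 6 hepatocyte markers did not all move alike. In the tests described below, 3 were lower in the embryo than at time 0, 1 was higher and 2 were not called. Of all genes, 24.8% were lower and 30.9% higher there. Erythroid markers (6 of 7 measured) summed to 1589 to 16411 in embryonic liver, where blood is made, against 512 and 563 at time 0. In whole liver, fewer cells of a type and less RNA per cell cannot be told apart. Some arrays stood apart in RNA quality. The second 48 h array had 3′ over 5′ log2 ratios of 1.22 for Gapdh and 2.42 for beta-actin (-0.39 and 1.01 on the first 48 h array). The first 10.5-day array had a Gapdh ratio of 1.49. Ratios were raised less at 2 h (Gapdh 0.20 and 0.32, beta-actin 1.44 and 1.72) and on the second 12 h array (0.30 and 1.39). The other adult arrays had Gapdh ratios from -0.44 to -0.17. The part of RNA quality in the 2 h and 12 h results was not tested.

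The promoter windows of Mt2 and Srxn1 are shown because each ends at the annotated start of its gene and holds more than 1 match to a response element. Table entries in RefSeq (GRCm38.p6) were found for 7 of the 9 genes, and the 250 bases before each listed start were searched on both strands. The metal response element core was searched as TGCACNC and TGCGCNC. Mt2 (chr8:94172368-94172617, plus strand) holds 3 matches in its window, shown in capitals, the last of them on the minus strand. Of 32851 windows of the same length, 21.4% hold at least 1 such match and 1.26% hold 3 or more.
Mt2: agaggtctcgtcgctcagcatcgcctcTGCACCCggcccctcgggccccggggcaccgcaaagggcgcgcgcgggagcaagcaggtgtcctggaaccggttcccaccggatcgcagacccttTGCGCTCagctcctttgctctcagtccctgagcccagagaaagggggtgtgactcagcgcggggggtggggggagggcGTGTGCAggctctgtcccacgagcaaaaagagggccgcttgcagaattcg

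The Mt1 window has 1 match; its listed start lies inside the annotated gene interval, as does that of Osgin1, and neither window is printed. An AP-1 site (TGAGTCA or its complement TGACTCA) was found in 4.46% of all windows. Sulfiredoxin's window (Srxn1, chr2:152105274-152105523, plus strand) has 2 of them, and 0.167% of all windows have 2 or more. The Osgin1 window has 1. Capitals mark the sites of Srxn1.
Srxn1: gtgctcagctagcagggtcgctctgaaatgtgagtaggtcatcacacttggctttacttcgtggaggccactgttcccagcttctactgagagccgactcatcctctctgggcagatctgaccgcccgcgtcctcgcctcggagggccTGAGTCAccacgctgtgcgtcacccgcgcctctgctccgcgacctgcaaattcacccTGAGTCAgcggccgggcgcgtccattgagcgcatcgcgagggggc

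The antioxidant response element core, searched as TGAC, any 3 bases and GC, occurs in 10.2% of all windows. It has 1 match each in the windows of Mt2, where it overlaps an AP-1 match, of Gclm and of 1 of the 3 listed Txnrd1 starts. No match to this string was found in the windows of Nqo1, Srxn1, Osgin1 or Mt1. The string cannot match TGAGTCA followed by GC, which the Srxn1 window holds at the later of its AP-1 sites. A match is a stretch of letters and not a measured binding site.

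Regenerating liver had more metallothionein RNA than unoperated liver, while the antioxidant genes did not move as a group. Against time 0, at 1 to 6 h, 2 of the 9 genes rose and 1 fell, where 0.726% of all genes rose and 0.253% fell. The 2 that rose were Mt1 and Mt2, and Osgin1 fell. At 12 to 30 h, 2 rose and 1 fell, against 2.61% and 2.18% of all genes; Mt1 and Mt2 rose again, and Gclc fell. At 48 to 72 h, Mt1 and Mt2 rose and none fell, against 2.01% and 0.638% of all genes. The tests are from limma on all 32 arrays, with Benjamini-Hochberg adjustment over the 18194 genes and a threshold of 0.05. Over the 9 times after hepatectomy together, the moderated F test called 8 of the 9 genes, against 18.2% of all genes. Gclm was the exception (adjusted p = 1).

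**Figure D1:**
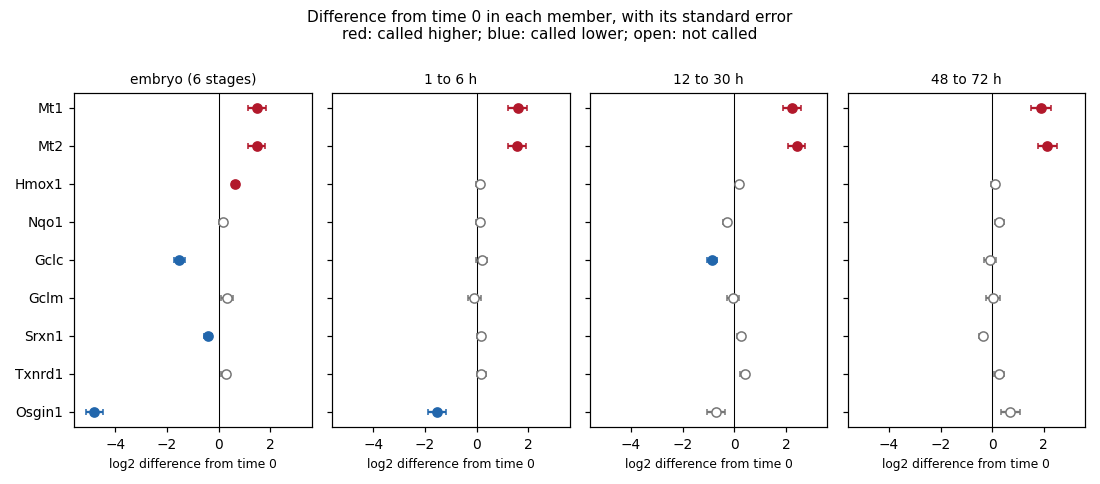
Log2 difference from time 0 (x axis, log2 of intensity + 16, with its standard error) of the 9 genes in the mean of the 6 embryonic stages and in 3 phases after hepatectomy. Filled points passed the adjusted threshold of 0.05; Mt1 and Mt2 lie to the right in each panel, between 1.47 and 2.42, and Osgin1 lies furthest left in the embryo, at -4.82.

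Mt1 and Mt2 intensities lay above both time 0 arrays from the first hour and had their highest mean of all 16 groups at 18 h. Mt1 intensity was 4802 and 5431 in the 1 h pools, 4181 and 4926 in the 2 h pools, 7379 and 7359 in the 6 h pools, 9112 and 7114 in the 12 h pools, 9653 and 9452 in the 18 h pools, 8019 and 9212 in the 24 h pools, 8170 and 8393 in the 30 h pools, 9654 and 3431 in the 48 h pools, and 7730 and 8250 in the 72 h pools, against 947 and 3489 at time 0. Only the second 48 h array overlapped the time 0 arrays, and the other 17 regenerating arrays lay above both. Mt2 intensity was 3569 and 3557 in the 1 h pools, 3114 and 3279 in the 2 h pools, 6487 and 6371 in the 6 h pools, 8294 and 6653 in the 12 h pools, 8637 and 8178 in the 18 h pools, 7110 and 8069 in the 24 h pools, 7125 and 7168 in the 30 h pools, 8688 and 3216 in the 48 h pools, and 6712 and 8141 in the 72 h pools, against 837 and 2377 at time 0. All 18 regenerating arrays lay above both time 0 arrays. The low second 48 h array is among those with high control ratios given above.

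**Figure D2:**
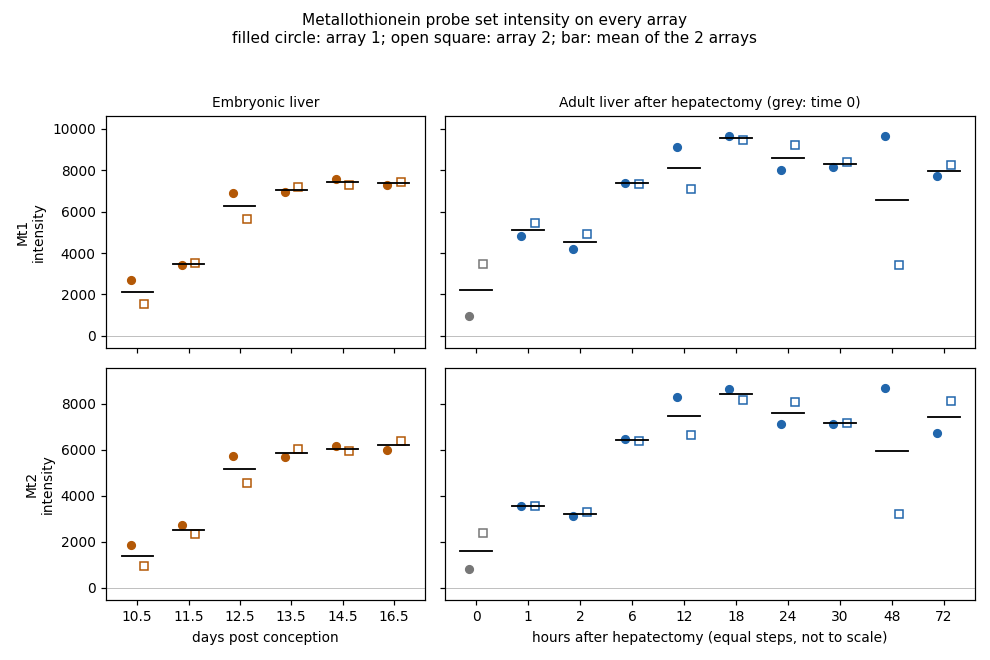
Intensity (linear, as deposited) of Mt1 and Mt2 on every array, with embryonic stages in days on the left and hours after hepatectomy on the right; bars are means of 2 arrays and grey marks time 0. Both genes have their highest mean at 18 h and climb between 10.5 and 12.5 days in the embryo, and the 2 time 0 arrays and the 2 arrays at 48 h stand far apart.

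In the fit, Mt1 rose by 1.60 ± 0.37 (log2 difference ± SE) in the 1 to 6 h phase (adjusted p = 0.0386), by 2.23 ± 0.36 in that of 12 to 30 h (adjusted p = 0.00084) and by 1.89 ± 0.40 in that of 48 to 72 h (adjusted p = 0.00912). Mt2 rose by 1.56 ± 0.34 (adjusted p = 0.0225), 2.42 ± 0.33 (adjusted p = 0.000151) and 2.13 ± 0.36 (adjusted p = 0.00134) in the same phases, which at 12 to 30 h is 5.35-fold on the scale with 16 added. Taken alone, 1 h did not pass for either gene (Mt1 1.48, adjusted p = 0.267; Mt2 1.32, adjusted p = 0.276). Mt2 went on rising after the first hours: 12 to 30 h exceeded 1 to 6 h by 0.86 ± 0.23 (adjusted p = 0.0113). The same step for Mt1, 0.63 ± 0.25, did not pass (adjusted p = 0.0953). Of 4 neutrophil markers, S100a8 and S100a9 rose in each of the 3 phases (2.04 and 1.84 at 1 to 6 h), while Ngp and Mpo were called in none. The summed level of the 4 was 708 to 1729 at 1 to 6 h, 607 to 1373 at 12 to 30 h and 614 to 1683 at 48 to 72 h, against 431 and 469 at time 0. Their part in the metallothionein rises was not tested.

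The 2 time 0 arrays of these differences were unlike. The second time 0 array was 1.86 above the first for Mt1 and 1.49 for Mt2 (log2), and Igfbp1, an early hepatectomy gene, was at 44.8 on the first and 243.6 on the second. Across the acute phase list the second array was higher for 6 of 7 genes (median 0.45), and across the glucocorticoid list for 3 of 6 (median 0.04). Left without the first time 0 array, every Mt1 call against time 0 was lost (0.67, 1.30 and 0.96 in the 3 phases and 0.54 in the embryo), and Mt2 remained called at 12 to 30 h alone among these 4 (1.68, adjusted p = 0.0242). At single times Mt2 then passed at 12 h and 18 h only. The Mt1 call at 1 to 6 h was lost in 23 of the 32 fits that left out 1 array, over a range of 0.67 to 2.53; many of those arrays belonged to other groups. The Mt2 call at 1 to 6 h was lost without the first time 0 array, the second 1 h array or the second 2 h array.

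**Figure D3:**
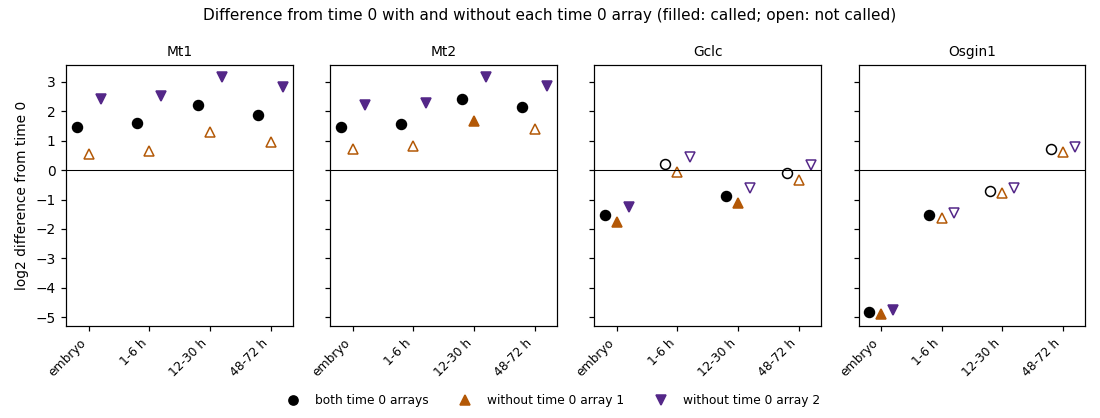
Log2 difference from time 0 (y axis) of Mt1, Mt2, Gclc and Osgin1 in the embryo and in 3 phases after hepatectomy (x axis), with both time 0 arrays and with each left out. Filled symbols passed the threshold; without time 0 array 1 the Mt1 differences shrink to between 0.54 and 1.30 and none passes, whereas Osgin1 in the embryo hardly moves.

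A second probe set of Mt1 did not follow the one used. The probe set used is of a class whose probes can match more than 1 transcript, while the second, with a mean of 92.9, is not. On the second, Mt1 differed from time 0 by 1.19, 0.65 and -0.02 in the 3 phases and by -0.76 in the embryo, the last a fall that passed the threshold (adjusted p = 0.0366). Mt2 has a single probe set. Over the 16 group means the used Mt1 probe set and Mt2 correlated at r = 0.99; how much shared probe matching adds to this was not tested.

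Genes that answer to known inducers of metallothionein were counted in the same phases, where 0.726%, 2.61% and 2.01% of all genes rose. At 1 to 6 h, 3 of 6 glucocorticoid-responsive genes rose and none fell (median 1.26 over the list, 0.00 over all genes): Zbtb16 rose by 1.86, the kinase gene Sgk1 by 1.80 and the tyrosine aminotransferase gene Tat by 2.09. Of 7 interleukin-6 and acute phase genes limma called 0 in that phase (2 had an unadjusted p below 0.05, median 0.25). That mean joins unlike hours. Saa2 fell at 1 h and both Saa1 and Saa2 fell at 2 h, where 0.0824% and 0.126% of all genes fell. At 6 h, 5 of the 7 rose and none fell (median 1.81), where 1.06% of all genes rose. At 12 to 30 h, 6 of those 7 rose (median 2.32), among them lipocalin 2 (Lcn2, 4.96) and serum amyloid A (Saa2, 3.30; Saa1, 2.46), and 6 of 7 at 48 to 72 h (median 2.41). The glucocorticoid list counted 2 of 6 in each of these later phases, Zbtb16 and Sgk1. Tat at 1 to 6 h and Sgk1 at 48 to 72 h lost their calls without either time 0 array. The calls of Zbtb16 at 1 to 6 h and 48 to 72 h were lost when probe sets that can match more than 1 transcript were left out.

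Among 9 zinc and metal handling genes, limma called 0 at 1 to 6 h (0 with an unadjusted p below 0.05), 1 at 12 to 30 h and 0 at 48 to 72 h (1 with an unadjusted p below 0.05). The gene called was Slc39a14, the zinc and iron importer ZIP14 of the acute phase, which rose by 1.32 at 12 to 30 h (adjusted p = 0.0154); its intensities were 4091 and 2704 in the 12 h pools and 2288 and 2897 in the 18 h pools, against 750 and 997 at time 0. That call was lost without either time 0 array, whereas the step between 1 to 6 h and 12 to 30 h, 1.08 ± 0.21 (adjusted p = 0.00117), passed with every single omission. The zinc importer gene Slc39a10 also rose over that step (0.72) and Slc39a8 fell (-0.60). The MTF1 gene itself differed by -0.14 ± 0.13, 0.09 ± 0.13 and 0.13 ± 0.14 in the 3 phases and was not called in any of them. Slc30a1, the zinc exporter that MTF1 is known to induce, was called at no single time against time 0. Its differences ran from -0.50 at 18 h (adjusted p = 0.195) to 0.18 at 30 h. It was at 238 and 285 in the 12 h pools, 295 and 201 in the 18 h pools and 394 and 404 in the 30 h pools, against 439 and 281 at time 0.

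Time by time, the antioxidant genes peaked at different hours. At 1 h limma called 0 rises (3 with an unadjusted p below 0.05) and 1 fall, that of Osgin1, where 0.401% of all genes rose and 0.0824% fell. At 2 h it called 0 of 9 (3 with an unadjusted p below 0.05), against 0.445% and 0.126% of all genes. At 6 h, 3 rose, Mt1, Mt2 and Hmox1, and 0 fell, where 1.06% of all genes rose and 1.06% fell. At 12 h, 5 of 9 rose and 2 fell, against 4.23% and 4.64% of all genes, and at 18 h 3 rose and 1 fell, against 4.47% and 3.26%. At 24 h Mt1 and Mt2 were the 2 called, against 0.643% and 0.605% of all genes higher and lower, and at 30 h the same 2, against 0.258% and 0.0934%. At 48 h Mt2 was called, against 0.638% and 0.863%. At 72 h Mt1, Mt2 and Nqo1 rose, against 2.83% and 0.319%. These comparisons share the 2 time 0 arrays.

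**Figure D4:**
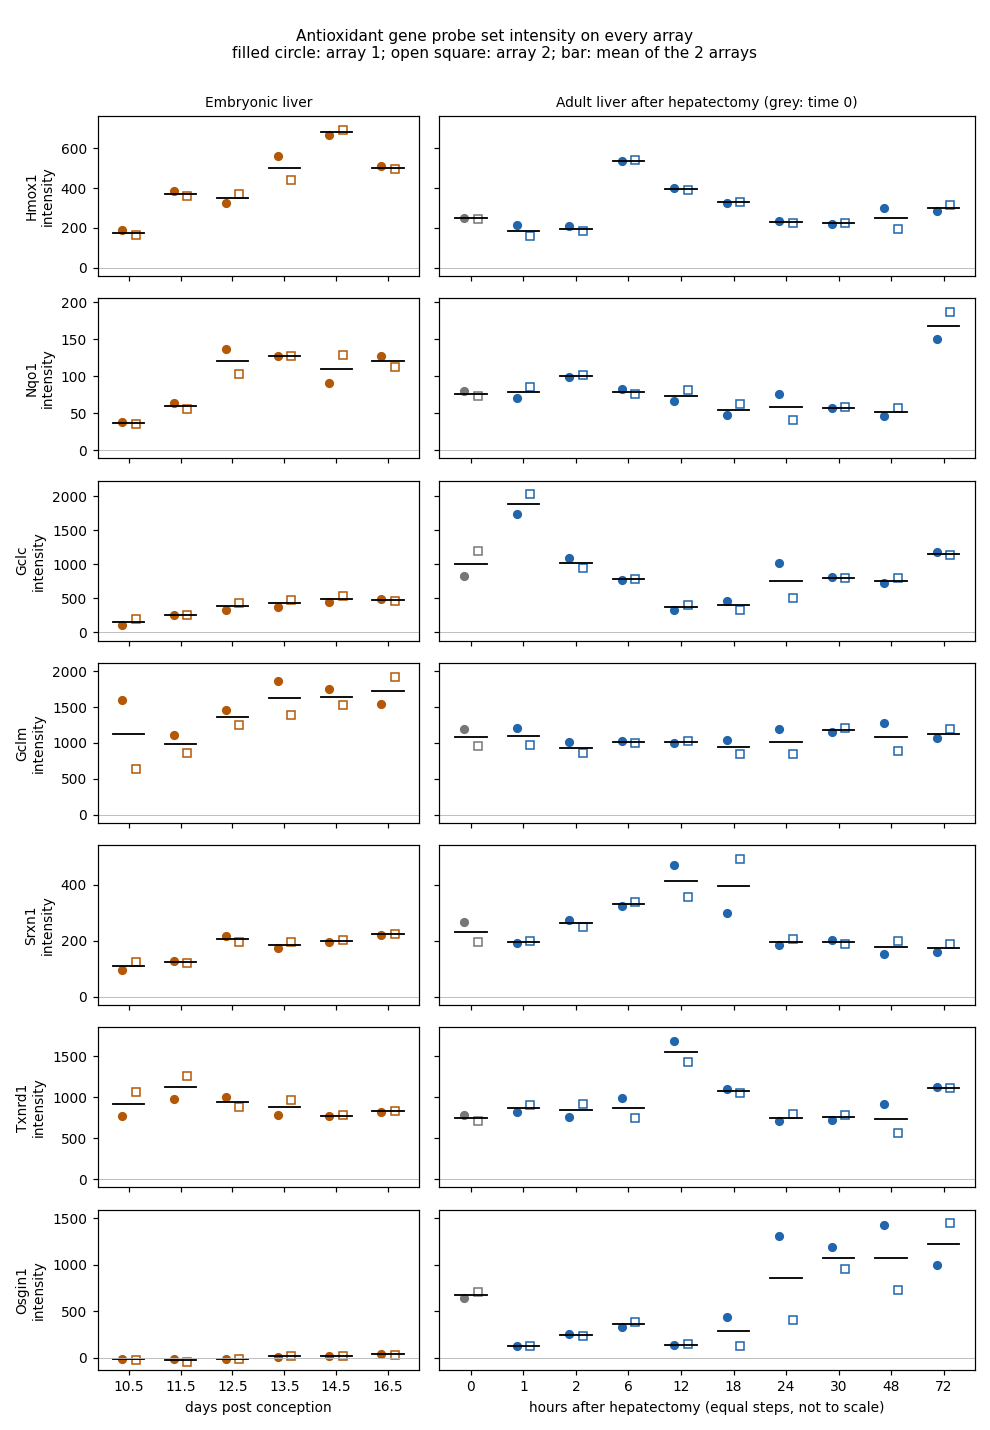
Intensity (linear, as deposited) of 7 antioxidant genes on every array, embryonic stages on the left and hours after hepatectomy on the right, with means of 2 arrays as bars. Hmox1 is highest after hepatectomy at 6 h, Gclc at 1 h, Srxn1 and Txnrd1 at 12 h, and Nqo1 and Osgin1 at 72 h, while Gclm lies between 847 and 1280 after hepatectomy; Osgin1 lies at or near 0 in the embryo.

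Heme oxygenase 1 rose at 6 h and 12 h. Hmox1 intensity was 212 and 160 in the 1 h pools, 208 and 184 in the 2 h pools, 533 and 540 in the 6 h pools, 401 and 390 in the 12 h pools, 326 and 331 in the 18 h pools, 233 and 223 in the 24 h pools, 222 and 223 in the 30 h pools, 299 and 195 in the 48 h pools, and 285 and 315 in the 72 h pools, against 250 and 246 at time 0. The 1 h and 2 h arrays all lay below both time 0 arrays, and those of 6 h, 12 h and 18 h all above them. The 6 h rise was 1.07 ± 0.16, or 2.09-fold (adjusted p = 0.000646), and it passed in each of the fits that left out 1 array. At 12 h the rise of 0.64 ± 0.16 (adjusted p = 0.0162) was lost without any 1 of the 12 h or time 0 arrays. Averaged over 1 to 6 h, Hmox1 differed from time 0 by 0.12 ± 0.14, a mean over lower values at 1 h and 2 h and higher ones at 6 h.

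BACH1 is known to repress Hmox1, and its gene rose at 6 h and 12 h too. Bach1 rose at 6 h by 0.70 ± 0.18 (404 and 393, against 220 and 260 at time 0; adjusted p = 0.0456), at 12 h by 0.98 ± 0.18 (427 and 560; adjusted p = 0.00122) and at 72 h by 0.82 ± 0.18 (455 and 417; adjusted p = 0.0108). Of 7 heme breakdown partners, 2 rose at 12 to 30 h, the plasma scavengers haptoglobin (Hp, 0.93) and hemopexin (Hpx, 0.79), and the iron exporter gene Slc40a1 fell (-0.93). Of all genes, 2.61% rose and 2.18% fell in that phase. Hp and Hpx lost their calls without the first time 0 array, and Slc40a1 in 4 of 32 such fits, those without either time 0 array among them. Slc40a1 was also lower at 12 to 30 h than at 1 to 6 h (-1.11), and higher at 48 to 72 h than at 12 to 30 h (1.18), calls that no omitted array removed.

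The subunit genes of glutamate-cysteine ligase had different courses. Gclc, the catalytic subunit gene, had intensities of 1735 and 2030 in the 1 h pools, 1094 and 952 in the 2 h pools, 767 and 792 in the 6 h pools, 332 and 404 in the 12 h pools, 468 and 336 in the 18 h pools, 1019 and 498 in the 24 h pools, 814 and 794 in the 30 h pools, 720 and 794 in the 48 h pools, and 1177 and 1131 in the 72 h pools, against 829 and 1190 at time 0. The 1 h arrays were the highest of all 32 arrays for Gclc, yet their difference of 0.91 ± 0.27 from time 0 did not pass (adjusted p = 0.211). At 12 h it fell by 1.40 ± 0.27 (adjusted p = 0.00171) and at 18 h by 1.29 ± 0.27 (adjusted p = 0.00414), to means 2.64-fold and 2.45-fold below time 0 on the scale with 16 added. The 18 h call was lost without the second 18 h array or the second time 0 array. The phase difference at 12 to 30 h was -0.87 ± 0.21 (adjusted p = 0.0193), and -0.61 without the second time 0 array, which did not pass.

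Differences between phases, which leave the time 0 level out, gave the same course for Gclc. It was lower at 12 to 30 h than at 1 to 6 h by -1.07 ± 0.14 (adjusted p = 2.59e-05), and higher at 48 to 72 h than at 12 to 30 h by 0.78 ± 0.16 (adjusted p = 0.00532). Neither call was lost without any single array. In the first of these comparisons 2 members rose and 2 fell, against 6.99% and 8.28% of all genes, and in the second 3 rose and 1 fell, against 4.09% and 1.58%. A second Gclc probe set, with a mean of 518, gave -1.18 and 0.61 for the same steps.

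Gclm, the modifier subunit gene, was called at no time after hepatectomy. Its 18 regenerating arrays ran from 847 to 1280, against 1199 and 955 at time 0, and its 3 phase differences were -0.08 ± 0.25, -0.05 ± 0.24 and 0.03 ± 0.26. The 95% interval at 12 to 30 h was -0.55 to 0.44, with no adjustment for the number of genes. With 2 time 0 arrays, a change beyond it could also have gone uncalled. In the same phase Txnrd1, at 0.40 with an interval of 0.05 to 0.75, was not called. The second Gclm probe set, with a mean of 326, gave -0.50 at 12 to 30 h.

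Sulfiredoxin and thioredoxin reductase 1, both of the peroxiredoxin and thioredoxin system, had their highest means at 12 h, where the Srxn1 arrays overlapped those of 18 h. Srxn1 intensity was 192 and 201 in the 1 h pools, 276 and 250 in the 2 h pools, 323 and 340 in the 6 h pools, 472 and 356 in the 12 h pools, 299 and 492 in the 18 h pools, 183 and 205 in the 24 h pools, 203 and 190 in the 30 h pools, 155 and 199 in the 48 h pools, and 162 and 188 in the 72 h pools, against 266 and 197 at time 0. All arrays at 6 h, 12 h and 18 h lay above both time 0 arrays. Srxn1 rose at 12 h by 0.80 ± 0.19 (adjusted p = 0.0108) and at 18 h by 0.71 ± 0.19 (adjusted p = 0.0266), calls that were both lost without the second time 0 array; the first was also lost without the first 12 h array and the second without the second 18 h array (0.36). It was lower at 48 to 72 h than at 12 to 30 h by -0.63 ± 0.12 (adjusted p = 0.00189), whichever array was left out, but another of its 4 probe sets gave 0.07 for this step.

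Txnrd1 intensity was 822 and 905 in the 1 h pools, 758 and 919 in the 2 h pools, 994 and 743 in the 6 h pools, 1680 and 1431 in the 12 h pools, 1093 and 1053 in the 18 h pools, 704 and 797 in the 24 h pools, 722 and 785 in the 30 h pools, 911 and 567 in the 48 h pools, and 1118 and 1108 in the 72 h pools, against 785 and 705 at time 0. The 12 h arrays stood above all other adult and embryonic arrays. Txnrd1 rose at that time by 1.04 ± 0.21, or 2.06-fold (adjusted p = 0.00307), with every single omission. It passed at no other single time. Its 2 other probe sets, with means of 120 and 95.2, gave -0.66 and -0.30 at 1 to 6 h, where the probe set used gave 0.19.

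The quinone reductase gene Nqo1 was low on these arrays until 72 h. Its intensity was 71 and 85 in the 1 h pools, 98 and 101 in the 2 h pools, 83 and 76 in the 6 h pools, 66 and 81 in the 12 h pools, 47 and 63 in the 18 h pools, 76 and 41 in the 24 h pools, 57 and 58 in the 30 h pools, 46 and 56 in the 48 h pools, and 150 and 187 in the 72 h pools, against 80 and 73 at time 0. Both 72 h arrays were above every other array of the study. The 72 h rise was 0.99 ± 0.20, or 1.99-fold (adjusted p = 0.00568), and was lost without the second 72 h array or the second time 0 array. Nqo1 was lower at 12 to 30 h than at 1 to 6 h by -0.41 ± 0.11 (adjusted p = 0.0118) and higher at 48 to 72 h than at 12 to 30 h by 0.55 ± 0.12 (adjusted p = 0.00904), the second of which was lost without the second 72 h array. Macrophage markers moved over the same late step: 4 of 8 rose at 48 to 72 h relative to 12 to 30 h, where 4.09% of all genes rose. Their summed level was 3424 to 6687 at 48 to 72 h and 2753 to 4156 at 12 to 30 h. Their part in the Nqo1 rise was not tested.

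Osgin1 swung widest. Its intensity was 124.5 and 122.8 in the 1 h pools, 253 and 233 in the 2 h pools, 332 and 382 in the 6 h pools, 134 and 148 in the 12 h pools, 443 and 130 in the 18 h pools, 1308 and 409 in the 24 h pools, 1189 and 957 in the 30 h pools, 1429 and 727 in the 48 h pools, and 992 and 1448 in the 72 h pools, against 638 and 711 at time 0. All 10 arrays of the first 18 h lay below both time 0 arrays, and all 4 at 48 and 72 h above them. The falls were -2.30 ± 0.44 at 1 h (adjusted p = 0.0114) and -2.14 ± 0.44 at 12 h (adjusted p = 0.00307), that is 4.94-fold and 4.39-fold lower. The 12 h fall passed with every single omission, and the 1 h fall was lost without any 1 of the 1 h or time 0 arrays. The phase difference at 1 to 6 h, -1.54 ± 0.36 (adjusted p = 0.0366), was lost in 16 of the 32 fits that left out 1 array, over a range of -1.61 to -1.46.

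The return of Osgin1 passed in the comparisons between phases. It was higher at 12 to 30 h than at 1 to 6 h by 0.84 ± 0.24 (adjusted p = 0.0177). That mean joins 12 h arrays (134 and 148) below all 2 h and 6 h arrays with high 30 h arrays (1189 and 957). The 2 arrays disagreed at 18 h and at 24 h. Osgin1 was higher at 48 to 72 h than at 12 to 30 h by 1.40 ± 0.27 (adjusted p = 0.00235). Against time 0 the 48 to 72 h level differed by 0.70 ± 0.38, which did not pass (adjusted p = 0.445).

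In the embryo 8 of the 9 members rose with age. The linear change per day from 10.5 to 16.5 days was called upward for 8 of the 9 genes and downward for none, against 16.4% and 11.5% of all genes. Hmox1 changed by 0.23 ± 0.02 a day (log2; adjusted p = 1.54e-07), Nqo1 by 0.21 ± 0.03 (adjusted p = 8.91e-06), Gclc by 0.25 ± 0.04 (adjusted p = 3.88e-05) and Mt2 by 0.35 ± 0.06 (adjusted p = 0.000144). Mt1 (0.29), Srxn1 (0.15), Gclm (0.15) and Osgin1 (0.32) rose as well. Txnrd1 changed by -0.05 ± 0.03 and was not called. The 10.5-day arrays carried part of this: in a fit without them, chosen after seeing the data, 6 of 9 rose (15.5% of all genes were called in either direction), and Mt1 (0.18, adjusted p = 0.16) and Mt2 (0.21, adjusted p = 0.0592) did not pass. Gclm's trend was lost without the second 10.5-day array (0.07) or the second 16.5-day array. With the constant 64, or with only the embryonic groups fitted, 7 members rose and 0 fell. Quantile normalization gave 8 upward and 1 downward.

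The stages show 2 shapes. Mt1 was at 2677 and 1558 at 10.5 days, 3428 and 3534 at 11.5 days, 6900 and 5655 at 12.5 days, and then between 6946 and 7591 on the 6 later arrays. Mt2 was at 1843 and 962 at 10.5 days, 2712 and 2326 at 11.5 days, 5749 and 4574 at 12.5 days, and between 5680 and 6383 later. Both thus gained most up to 12.5 days and little after it, and Nqo1 (38.01 and 35.67, then 64.04 and 55.21, then 136.7 and 103.6 at the first 3 stages) had the same form. Gclc was at 115.4 and 192.7 at 10.5 days, 254 and 256 at 11.5 days, 325 and 438 at 12.5 days, and between 372 and 529 later.

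Hmox1 kept climbing longer than these. It was at 190 and 163 at 10.5 days, 383 and 360 at 11.5 days, 327 and 370 at 12.5 days, 560 and 443 at 13.5 days, 665 and 692 at 14.5 days, and 512 and 494 at 16.5 days. The 14.5-day mean of 678 ± 18 (SD, n = 2) was the highest of all 16 groups, and its arrays overlapped no other group. Erythroid and macrophage markers increased over the same days, with 6 of 6 and 5 of 8 rising in the trend, where 16.4% of all genes rose. So did 4 of 6 hepatocyte markers and 4 of 4 neutrophil markers (median 0.64 a day). The part of these markers in the rises of the members was not tested. Of the heme breakdown partners 5 of 7 rose with age, against the same share of all genes. They included the heme transporter gene Slc48a1 (0.33 a day), the biliverdin reductase gene Blvra (0.17) and Slc40a1 (0.34).

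Gclm, Srxn1 and Txnrd1 had smaller excursions. Gclm was at 1603 and 640 at 10.5 days and at 1537 and 1924 at 16.5 days, and the first of these arrays is the one with the Gapdh ratio of 1.49. Srxn1 was at 97.3 and 122.7 at 10.5 days and at 222.3 and 222.9 at 16.5 days, with no overlap. Txnrd1 ranged from 767 to 1260 over the 12 embryonic arrays, highest at 11.5 days. The F test over the 6 stages called 7 of 9 members, all but Gclm and Txnrd1, against 21.2% of all genes.

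Osgin1 was at or near the floor in embryonic liver. Its deposited intensities ran from -44.0 to 42.6 over the 12 arrays, with the 6 arrays from 10.5 to 12.5 days all below 0, against 638 and 711 at time 0. The fitted difference was -4.82 ± 0.33 (adjusted p = 6.74e-11), and because the embryonic values lie at the floor it depends on the constant added: -3.31 with 64 and -6.11 with 4. No fold is given for it. Its upward trend of 0.32 a day (adjusted p = 0.000595) ended at 42.6 and 30.3 at 16.5 days. The 6 arrays below 0 entered that trend as 0, so its slope and spread also depend on the floor.

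Set against unoperated adult liver, the mean of the 6 stages differed for 6 of the 9 genes, 3 higher and 3 lower, where 30.9% and 24.8% of all genes did so; a count of this size is near the background and is no feature of these genes. Mt1 (1.47 ± 0.35), Mt2 (1.47 ± 0.32) and Hmox1 (0.65 ± 0.13) were higher, with adjusted p of 0.00117, 0.000508 and 0.000159. Gclc (-1.52 ± 0.21, adjusted p = 1.7e-06), Srxn1 (-0.41 ± 0.15, adjusted p = 0.0227) and Osgin1 were lower. All 12 embryonic Gclc arrays lay below both time 0 arrays, and 10 of 12 Hmox1 arrays above both. Mt1, Mt2 and Srxn1 lost their calls without the first time 0 array. In the fit without the 10.5-day arrays, chosen after seeing the data, 5 were higher and 2 lower, where 57% of all genes were called in either direction. Nqo1 (0.38, adjusted p = 0.0483) and Gclm (0.42, adjusted p = 0.0473) then passed as higher, and Srxn1 did not pass (-0.30, adjusted p = 0.0924). The second Gclm probe set went the other way. Over all 6 stages it gave -0.53 against time 0, where the probe set used gave 0.33.

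In the contrast with liver at 48 and 72 h, the time 0 arrays enter the estimate of spread but not the difference. Here 1 member was higher in the embryo and 3 were lower, against 35.7% and 30.8% of all genes. Hmox1 was higher by 0.53 ± 0.10 (adjusted p = 4.25e-05). Gclc was lower by -1.43 ± 0.15 (adjusted p = 4.48e-08), Osgin1 by -5.53 ± 0.25 (adjusted p = 3.48e-14) and Mt2 by -0.66 ± 0.24 (adjusted p = 0.0204). The embryonic Osgin1 values lie at the floor, so the size of its difference depends on the constant added here too. The Mt2 difference was lost without the first 48 h array or the second 72 h array, and also without the 10.5-day arrays (-0.35, adjusted p = 0.204).

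Among the regulators of NRF2, the small MAF gene Maff gave the early response. Maff intensity was 118.4 and 134.97 in the 1 h pools, 241 and 203 in the 2 h pools, 107 and 267 in the 6 h pools and 82 and 74 in the 12 h pools, against 39 and 49 at time 0. It rose by 1.63 ± 0.21 at 1 to 6 h (adjusted p = 0.000139) and was the only one of 12 NRF2 regulators called in that phase (list median -0.02). At 12 to 30 h it was lower than at 1 to 6 h by -1.29 (adjusted p = 2.34e-06). Against time 0, limma called 0 of the 12 at 12 to 30 h and at 48 to 72 h, where 3 and 2 had an unadjusted p below 0.05. At single times Mafk, another small MAF gene, rose at 12 h (210 and 227, against 115.1 and 115.9 at time 0; 0.83 ± 0.23, adjusted p = 0.0275) and at 18 h (278 and 244; 1.07 ± 0.23, adjusted p = 0.00605).

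The NRF2 gene was called once against time 0 after hepatectomy, downward. Nfe2l2 was at 219 and 168 at 6 h, against 349 and 316 at time 0, and fell by 0.74 ± 0.17 (adjusted p = 0.021). Its phase differences from time 0 were -0.47 ± 0.14, -0.18 ± 0.13 and 0.14 ± 0.15, none of them called. Keap1 differed by -0.34 ± 0.16, -0.0029 ± 0.15 and 0.08 ± 0.17, also not called, and both genes rose slightly at 12 to 30 h relative to 1 to 6 h (0.29 for Nfe2l2 and 0.33 for Keap1), calls lost in 8 and 10 of the 32 fits that left out 1 array. Mafg was not called in any phase against time 0 (-0.37 ± 0.29, -0.34 ± 0.28 and -0.31 ± 0.31). NRF2 is known to be regulated mainly through protein stability, which was not measured here.

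In the embryo 4 of the 12 regulators were higher than at time 0 and 2 lower, where 30.9% and 24.8% of all genes were, so the count is no feature of the regulators. Mafk rose most, by 1.87 ± 0.18 (adjusted p = 1.09e-08), with 223 and 231 at 10.5 days and 695 and 710 at 16.5 days; the ubiquitin ligase scaffold gene Cul3 rose by 1.06 ± 0.10, Nfe2l2 by 0.72 ± 0.13 (adjusted p = 6.57e-05), and Rbx1, a ring-finger partner of CUL3, fell by 1.91 ± 0.20. Within the embryonic stages 4 rose and 1 fell, where 16.4% of all genes rose and 11.5% fell. Mafk rose by 0.27 a day, Mafg by 0.21 and Nfe2l2 by 0.08, the last lost in 3 of the 32 fits that left out 1 array. Mtf1 rose by 0.12 ± 0.03 a day (adjusted p = 0.000412). Bach1 was lower in the embryo than at 48 to 72 h (-0.38, adjusted p = 0.00322), and Keap1 differed from time 0 by -0.07 ± 0.15.

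**Figure D5:**
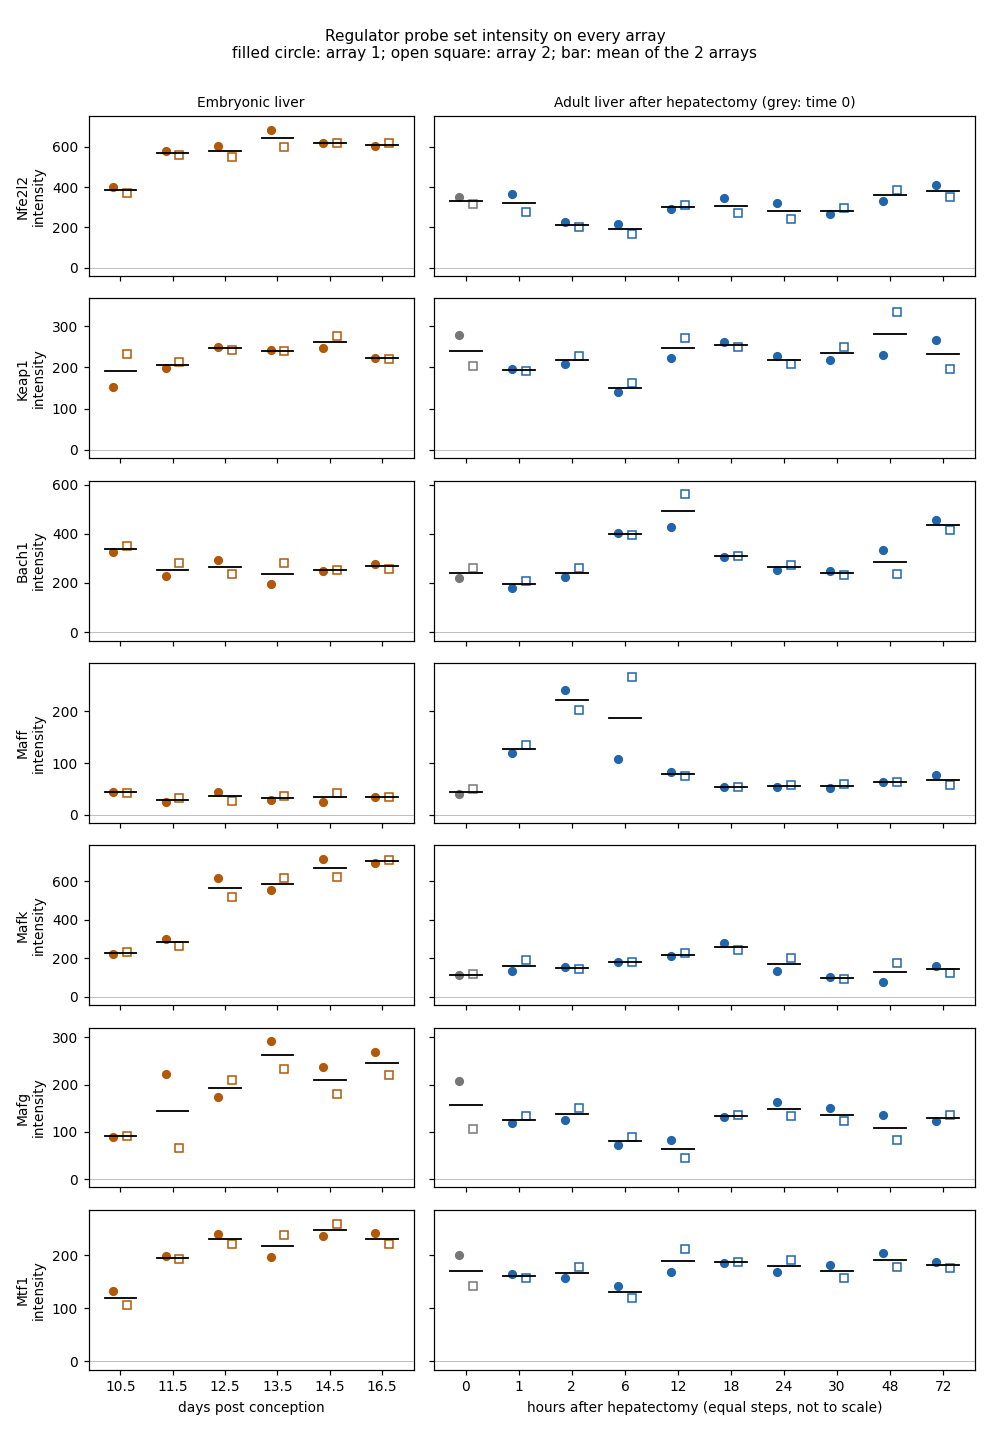
Intensity (linear, as deposited) of 7 regulator genes on every array, embryonic stages on the left and hours after hepatectomy on the right, with means of 2 arrays as bars. Maff peaks between 1 and 6 h with 2 unlike arrays at 6 h (107 and 267), Bach1 is high at 6, 12 and 72 h, and Mafk climbs in the embryo to 695 and 710 at 16.5 days.

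Of 28 further NRF2 targets listed, 24 were measured, and the other 4 are not analysed here. In the 3 phase means after hepatectomy none was called upward against time 0. At 1 to 6 h limma called 0 (4 with an unadjusted p below 0.05, median 0.21, all genes 0.00). At 48 to 72 h 1 fell, where 0.638% of all genes did, the transporter gene Abcc3 (-1.03, adjusted p = 0.0161, lost without either time 0 array). At 12 to 30 h 4 fell and none rose (median -0.13), where 2.18% of all genes fell and 2.61% rose. The 4 were the glutathione transferase genes Gstm4 (-0.88, adjusted p = 0.00129) and Gsta4 (-0.70), the exporter gene Abcc4 (-0.89) and the transketolase gene Tkt (-0.61). Each was lost without the first time 0 array, and Abcc4 and Tkt also without the second. At single times 2 rose once each, the phosphogluconate dehydrogenase gene Pgd at 18 h (0.61) and the glutathione transferase gene Gstm2 at 72 h (1.08). Of all genes, 4.47% rose at 18 h and 2.83% at 72 h. Falls at single times numbered 1 in the 12 h pools, 3 in the 18 h pools, 2 in the 24 h pools and 3 in the 48 h pools. At those times 4.64%, 3.26%, 0.605% and 0.863% of all genes fell. The 2 rises and the 12 h fall lie near these shares. Gstm4 was at -1.51 and Abcc4 at -1.40 at 18 h, and Abcc3 at -1.44 at 48 h. Between phases, 9 of 24 were lower at 12 to 30 h than at 1 to 6 h and none was higher, where 8.28% of all genes were lower and 6.99% higher. These included Gsta2 (-1.54, adjusted p = 1.56e-05), Gsta4 (-1.11), Gstm4 (-0.96) and Tkt (-0.70), 4 calls that no omitted array removed. At 48 to 72 h, 4 were higher than at 12 to 30 h, where 4.09% of all genes were. Gsta2, by 1.02 (lost without the second 48 h array), and Gsta4, by 0.64, were among them.

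In the embryo, 6 of the 24 were higher than at time 0 and 10 lower (median -0.21), where 30.9% of all genes were higher and 24.8% lower. The phase 2 enzyme genes Ephx1 (-3.99), Gsta3 (-4.37) and Gstm4 (-1.55) and the transporter gene Abcc3 (-2.33) were lower; Tkt (1.59), another pentose phosphate gene, Taldo1 (1.40), and the biliverdin reductase B gene Blvrb (2.02) were higher. Over the embryonic stages 10 rose and 3 fell, where 16.4% of all genes rose and 11.5% fell. Gsta3 (0.85 a day) and Blvrb (0.55 a day) were the steepest of those named.

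Enzymes that remove peroxide and superoxide or use glutathione, 18 of 21 measured, gave 1 call in the 3 phase means against time 0. At 1 to 6 h and at 48 to 72 h limma called 0, with 1 unadjusted p below 0.05 in each, and the medians were 0.25 and -0.08. The gene that rose at 12 to 30 h was mitochondrial superoxide dismutase, Sod2 (adjusted p = 0.00746), which lost its call without either time 0 array. At single times Sod2 rose at 12 h (1.34) and 18 h (1.92), as did the glutaredoxin gene Glrx (1.06 and 1.21), and Sod3 fell at 12 h (-0.75). Against time 0, the embryo had 5 higher and 7 lower, in a comparison where 30.9% and 24.8% of all genes were called, led by Prdx2 (3.05), an abundant red cell peroxiredoxin, and by extracellular superoxide dismutase, Sod3 (-2.73), and the oxoprolinase gene Oplah (-2.96). The zinc list had 3 of 9 higher and 5 lower there, against the same shares of all genes, with the zinc importer genes Slc39a10 (2.36) and Slc39a8 (1.49) higher and Slc39a14 (-1.85) and Slc39a4 (-1.58) lower.

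The members' patterns over the 16 group means were compared with those of all genes by Pearson's r, as a description only: the groups share a platform and a strong split between adult and embryo. Mt1 was most like Mt2 (r = 0.99) and then Tspan10 (r = 0.90), and Mt2, after Mt1, most like Tspan10 (r = 0.94). The nearest to Hmox1 were Il17ra and Poll (r = 0.87 each), to Nqo1 Cdkn3 (r = 0.84) and the lysozyme genes Lyz1 and Lyz2 (r = 0.83 each), and to Gclc Mtarc2 (r = 0.97). Gclm was most like Plaat3 (r = 0.95), Srxn1 most like Igfbp6 and Arrdc4 (r = 0.90 each), Txnrd1 most like Rbm7 (r = 0.85) and Osgin1 most like Kcna6 (r = 0.96).

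Among themselves several members had like courses in the embryo, Txnrd1 apart, and less like ones in the adult. Over the 6 stages, r between Gclc and Mt1 was 0.99, between Nqo1 and Mt2 0.99 and between Hmox1 and Gclc 0.93, and r with Txnrd1 was below 0 for each of the other 8. Over the 10 adult groups, Gclc and Srxn1 ran opposite ways (r = -0.71), Srxn1 and Txnrd1 together (r = 0.63), and Mt1 and Nqo1 had r = -0.11. These are values over 6 and 10 group means and no test was made of them.

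Ordered by their means, the 16 groups formed few separate steps. For Mt1 the 18 h mean of 9552 ± 142 (SD, n = 2 for this and the following means) was highest and the 10.5-day mean of 2117 ± 791 lowest, and of the 15 pairs of groups next to each other in that order, 5 did not overlap. Mt2 ran over the same extremes, 8408 ± 324 and 1402 ± 623, also with 5 separate neighbour pairs. Gclc had 7 such pairs, with 1883 ± 208 at 1 h as the highest mean and 154 ± 55 at 10.5 days as the lowest. Hmox1 had 7, Osgin1 6, Nqo1 and Txnrd1 4 each and Srxn1 3. Gclm had 1, and its highest mean, 1731 ± 273 at 16.5 days, and lowest, 936 ± 108 at 2 h, had a smaller ratio than the extremes of any other member. The remaining neighbours overlapped in their array values.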

How the data were processed

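Liver RNA of 32 arrays in 16 groups was analysed. Per the labels' protocols, total RNA was extracted with Trizol and 6 microg were labelled as biotinylated cRNA. The authors deposited 1 linear intensity per probe set and array; which software and normalization made it is not stated in the labels or files. Medians lay between 69.7 and 79.5 per array, and upper quartiles differed by at most 0.37 (log2) against a limit of 1, so no further normalization was applied. Between 2.54% and 4.02% of an array's values were below 0 and were set to 0, and 16 was added before log2.

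Of 45101 probe sets, 34958 were listed with 1 gene, which gave 18194 genes; the probe set of highest mean stands for its gene. R 4.3.3 with limma 3.58.1 fitted a model of group means (residual df 16, eBayes with an intensity trend) to every array, with Benjamini-Hochberg adjustment separately in each of 17 contrasts. The fit was tested on simulated data. Tables, sequence searches and plots used Python 3.11.15, pandas 2.3.3 and matplotlib 3.10.9. With 2 arrays per group, the number of arrays limits the precision.

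The members and all gene lists (zinc and metal handling, NRF2 regulators, other NRF2 targets, peroxide removal and glutathione use, heme breakdown partners, glucocorticoid-responsive, interleukin-6 and acute phase, and cell type markers) were chosen with earlier results of these data known. Named from a list were up to 4 called genes of smallest p per contrast, and always Nfe2l2, Keap1, Bach1, Mafk, Mafg, Maff and Mtf1. Further genes (Igfbp1, Cyp2e1, Slc30a1 and some called list members) were named after their values were seen. Array numbers in the titles were not used to pair arrays in the main fit. Over 120 pairs of groups, the correlation of same-numbered deviations ran from -0.36 to 0.56 (median -0.01), with 17 above 0.1. Such correlations cannot show whether same-numbered arrays were handled together. Alternatives were other constants (64 and 4), a filter on low values (highest group mean at least 64), quantile normalization, other probe set rules, the replicate number as a block, no trend with a robust fit, the compared groups alone, and each array left out.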

Additional observations from a re-analysis of the deposited data

Results flagged for a closer look

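Some steps between phases after hepatectomy passed limma's test of the difference itself, so that the change from time 0 was not the same in both phases. Relative to 1 to 6 h, the level at 12 to 30 h was higher by 0.86 for Mt2 and 0.84 for Osgin1, and differed by -0.41 for Nqo1 and -1.07 for Gclc (log2). The Osgin1 value is a mean over low 12 h and high 30 h arrays. At 48 to 72 h, relative to 12 to 30 h, Nqo1 was higher by 0.55 (adjusted p = 0.00904; lost without the second 72 h array), Gclc by 0.78 and Osgin1 by 1.40, and Srxn1 differed by -0.63. None of these steps uses the time 0 arrays. With 2 arrays in each group, no array was tested as an outlier within its group.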

How the results depend on the processing

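With 2 arrays a group, and 2 unlike time 0 arrays, a single omission changed some calls. Of 57 called results, 2332 alternative values gave the same call in 2176 cases, lost it in 151 and turned the sign in 5. Those 5 were all Mt1 or Srxn1 without probe sets of the classes that can match several transcripts: Mt1 at -0.021 (48 to 72 h), -0.76 (embryo), -0.19 (30 h) and -0.093 (72 h) against time 0, and Srxn1 at 0.066 (48 to 72 h against 12 to 30 h); there Mt1 was also at -0.53 (12 to 30 h against 1 to 6 h) and Srxn1 at 0.31 (48 to 72 h). The cause was not tested.

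Counts of members called moved as follows. At 1 to 6 h the constant 4 gave 1, and fitting only the groups compared gave 1, against 3 as reported; the omission of multi-transcript probe sets gave 2. Fitting only those groups, with fewer arrays, gave 0 at 12 to 30 h, 0 at 48 to 72 h and 0 for 48 to 72 h against 12 to 30 h. At 48 to 72 h the mean of probe sets gave 1 and the omission of multi-transcript probe sets 1. Over single times that omission gave 15, against 23.

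With quantile normalization the sign turned for Gclc at 1 to 6 h (-0.029), Gclm at 48 to 72 h (-0.20) and in the embryo (-0.16), and Txnrd1 in the embryo (-0.076) and in the embryo against 48 to 72 h (-0.26). With the mean of probe sets it turned for Gclm at 1 to 6 h (0.024), in the embryo (-0.10), at 12 to 30 h against 1 to 6 h (-0.30) and in the embryo against 48 to 72 h (-0.11), and for Txnrd1 at 1 to 6 h (-0.26). Without the 10.5-day arrays, an alternative chosen after seeing the data, it turned for Nqo1 (0.11) and Srxn1 (0.066) in the embryo against 48 to 72 h. None of these was called either way.

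With 1 array left out, counts of members called ranged over 0 to 3 at 1 to 6 h, 0 to 2 at 48 to 72 h, 3 to 7 in the embryo and 10 to 25 over single times. Uncalled differences that took both signs ranged, against time 0, over -0.057 to 0.46 (Gclc), -0.24 to 0.079 (Gclm) and -0.044 to 0.36 (Srxn1) at 1 to 6 h; -0.22 to 0.11 (Gclm) at 12 to 30 h; and -0.031 to 0.26 (Hmox1), -0.34 to 0.17 (Gclc) and -0.13 to 0.19 (Gclm) at 48 to 72 h. Gclm ranged over -0.032 to 0.089 at 12 to 30 h against 1 to 6 h. At 48 to 72 h against 12 to 30 h the ranges were -0.71 to 0.030 (Mt1), -0.64 to 0.072 (Mt2), -0.22 to 0.066 (Hmox1), -0.046 to 0.22 (Gclm) and -0.30 to 0.032 (Txnrd1). In the embryo against 48 to 72 h they were -0.13 to 0.038 (Srxn1) and -0.16 to 0.17 (Txnrd1).

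Same-numbered arrays share a replicate number in their titles, and whether they share more is not known. With the replicate number as a block, the Mt1 calls at 1 to 6 h (adjusted p = 0.053) and at 30 h were lost, so that 1 to 6 h gave 2 calls, and single times gave 22 calls. Over all genes, quantile normalization gave 387 calls at 24 h, 101 at 30 h and 486 at 48 h, against 227, 64 and 273.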

Other observations

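The second 48 h array, whose Gapdh and beta-actin 3′ over 5′ log2 ratios were 1.22 and 2.42 against -0.39 and 1.01 on the first, was lower than the first across several gene lists. The part of RNA quality in this was not tested. Its log2 difference from the first had a median of -0.57 over the 9 members, 3 of which were higher on it. The median was -1.13 over the 7 interleukin-6 and acute phase genes and -0.87 over the 7 heme breakdown partners, with none higher on the second array in either list. Of 18 peroxide and glutathione enzymes 1 was higher on it (median -1.04), and of 6 hepatocyte markers none was (median -0.56). Between the time 0 arrays the member median was -0.03, with 4 of 9 higher on the second.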
